A study of Homo sapiens with 6 samples.

Results

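QKI encodes Quaking, a protein of the STAR family (signal transduction and activation of RNA) that binds RNA through a KH domain. Alternative splicing towards the 3′ end of the QKI transcript gives isoforms with different C termini, of which QKI-5 is the nuclear one and is known as a regulator of alternative splicing. In mouse cells Quaking proteins are also known to act on the transcripts of their own gene. The transcript described here is that of QKI itself, read in libraries made with and without an antibody against QKI-5.

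The QKI locus was taken as the plus strand of chromosome 6 from 163835675 to 163999628 (hg19, counted from 1), a length of 163954 nt, and every deposited crosslink position inside it was used. It is 1 locus and overlaps 17 of the 174732 strand-specific 10 kb windows that held any event. The series comprises 3 QKI-5 iCLIP libraries and 3 control libraries made without antibody from BEAS2B, an established and immortalised line of human bronchial epithelial cells. iCLIP joins protein to RNA by ultraviolet light and reads, to the nucleotide, where reverse transcription stopped at the joined amino acid, and each such stop is a crosslink event. Per the labels, cells of both groups were irradiated at 150 mJ/cm2 and their RNA was cut with a high or a low dilution of RNase A, and the labels do not say which library had which. The antibody was made by the submitters, the control had no antibody rather than an unrelated one, and the labels leave it unsaid whether replicates came from separate cultures, so the p-values refer to library-to-library spread that may be purely technical. Library totals were 2143279 to 7283982 events in QKI-5 iCLIP and 29810 to 137926 events in controls. Values are given as EPM, the events scaled to a library of 1000000, on which 1 event weighs 0.137 to 0.467 EPM in QKI-5 libraries and 7.25 to 33.5 EPM in controls. Exon, intron and untranslated parts of QKI and the levels of bronchial marker genes need hg19 gene models, which were not used here, so positions are placed by their distance from the 2 ends of the locus.

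The first question was how much of each library fell on the QKI transcript. QKI-5 iCLIP replicates 1 to 3 held 3532, 820 and 1297 events there, or 485, 383 and 449 EPM. The controls held 45, 9 and 4 events, or 326, 217 and 134 EPM. The QKI transcript therefore carried events in every library, and each of the QKI-5 values lay above each of the control values. The means were 439 ± 51.9 EPM in QKI-5 iCLIP and 226 ± 96.3 EPM in controls (SD, n = 3 each), a ratio of 1.94 (two-sided exact permutation p = 0.1, the smallest that 3 libraries against 3 allow, and 0.2 after Benjamini-Hochberg adjustment over the 4 permutation tests made here). The counting error of the small controls is wide. From pooled events the ratio was 1.65, with a 95% exact interval of 1.28 to 2.18, and 45 of the 58 control events came from control replicate 1. Within replicate number 1 the ratio was 1.49 (1.11 to 2.04), within number 2 it was 1.76 (0.924 to 3.87) and within number 3 it was 3.35 (1.30 to 12.3). These intervals cover counting error only. Both groups came from the same line. The EPM of the locus within a library does not tell apart more QKI RNA in the cells from more contacts on each RNA.

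**Figure D1:**
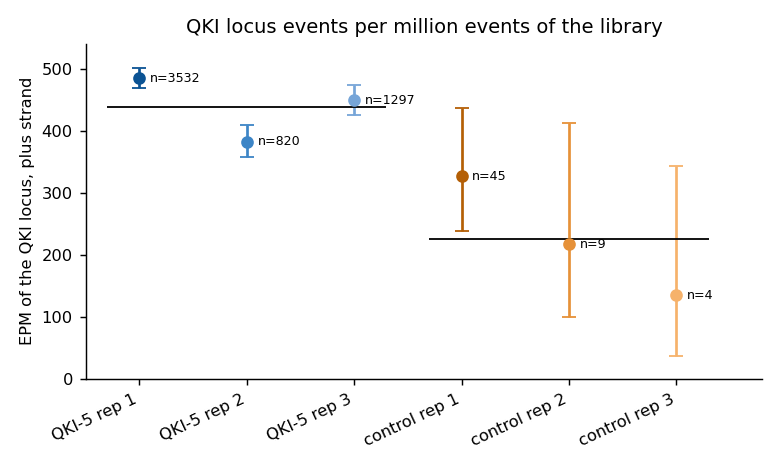
EPM of the QKI locus on the plus strand for the 3 QKI-5 iCLIP libraries (left) and the 3 control libraries (right). Bars are 95% exact Poisson intervals of the event count printed beside each point, and horizontal lines are the group means of 439 and 226 EPM. The 3 QKI-5 points lie above the 3 control points, and the interval of each control is several times wider than that of any QKI-5 library.

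The same total was then read against the whole table. With the QKI locus entered as 1 row beside all other 10 kb windows, its log2 fold change was 1.37 (SE 0.53, QKI-5 iCLIP over control) with an adjusted p of 0.154 by the edgeR quasi-likelihood test, so the locus did not pass. Of the 29946 rows tested, 0.765% were called higher and 0.107% lower. All rows in that fit had a median of 0.78 on the log2 scale. The locus lay 0.59 above that median and above 67.4% of the tested rows. That fit was scaled by TMM (trimmed mean of M values) after its filter on low counts. TMM factors computed over all rows before that filter were 0.615 to 0.649 for QKI-5 libraries and 0.909 to 2.44 for controls. The factors of the fit itself are not given here. With library totals the log2 fold change of the locus was 0.79 and the median of all rows was 0.22. With DESeq2 size factors they were 1.17 and 0.58, so a smaller positive median remained under both. The locus passed in 1 alternative, without control replicate 1, where its log2 fold change was 2.79 (adjusted p = 0.00136 by edgeR). That fit called 831 of 52124 tested rows higher. The median of its tested rows was 6.69, above the value of the locus. Among 29139 strand-specific tiles of the same length with any event, laid out so that the locus is 1 tile, it ranked 160 by mean QKI-5 EPM and 620 by mean control EPM.

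Events on the QKI locus lay almost wholly on the strand of its transcript. QKI-5 replicate 1 had 1 event on the opposite strand of the interval and 99.97% on the plus strand (95% exact interval 99.84 to 99.999). QKI-5 replicates 2 and 3 and all controls had no event on the opposite strand, which for control replicate 3, with 4 events, allows a plus-strand share as low as 39.8%. The shares did not separate the groups (two-sided exact permutation p = 1). With shares at or next to the ceiling and few control events, this test could hardly show a difference. Single positions often held more than 1 event. Of the QKI positions, 24.3, 35.3 and 43.2% did so in QKI-5 iCLIP replicates 1 to 3, against 19.7, 36.4 and 42.1% of all positions of those libraries. In the controls 3 of 42, 2 of 7 and 1 of 3 positions did so. On distinct positions, which count each position once, the QKI locus took 478, 446 and 472 per 1000000 distinct positions in QKI-5 libraries and 397, 272 and 163 in controls, a ratio of 1.68 with no overlap (two-sided exact permutation p = 0.1).

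**Figure D2:**
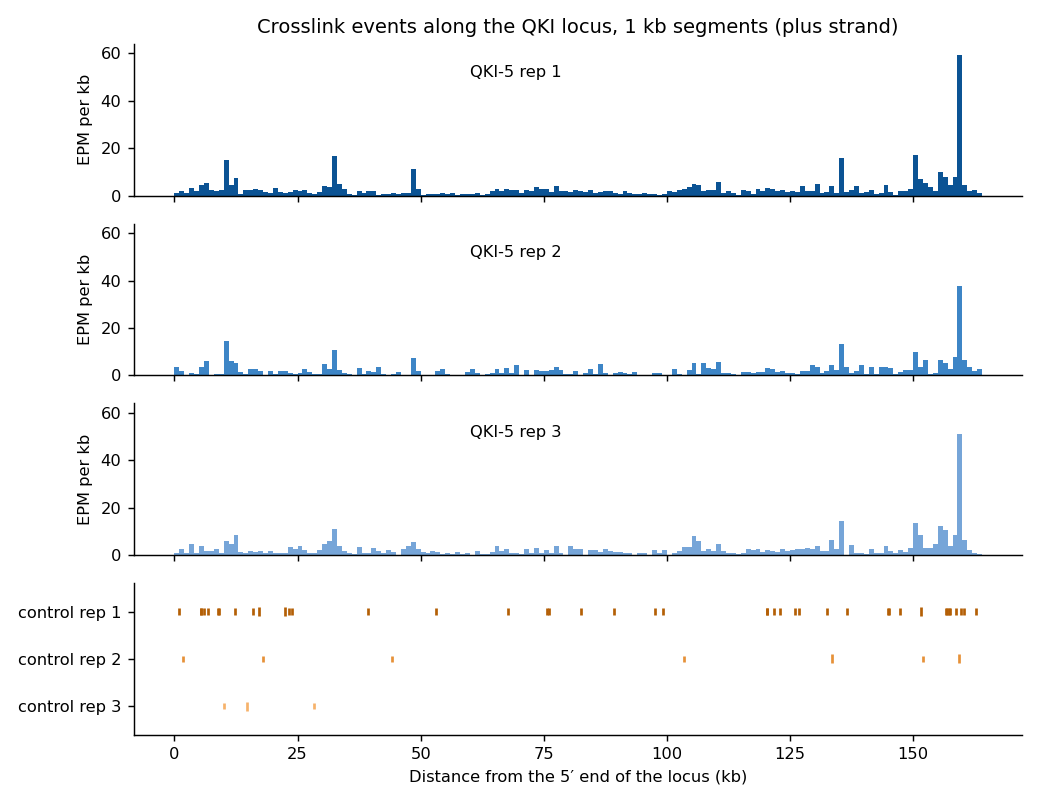
EPM in 1 kb segments along the QKI locus, from its 5′ end (left) to its 3′ end (right), for QKI-5 iCLIP replicates 1 to 3 on the same scale. The bottom panel marks each control position as a tick. The same sharp segment near the 3′ end reached 59.2, 37.8 and 51.2 EPM in the 3 QKI-5 libraries, with smaller peaks at shared places in the 5′ part and near the 3′ end.

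Along the locus, QKI-5 events were spread over its whole length and gathered towards the 3′ end. Cut into 164 segments of 1 kb, the locus had an event in 164, 139 and 156 segments in QKI-5 iCLIP replicates 1 to 3, and in 36, 7 and 3 segments in the controls. Despite that spread, 25, 25 and 26 segments held 50% of the QKI-5 events. The first QKI-5 events lay 73, 56 and 419 nt after the 5′ end and the last 145, 354 and 138 nt before the 3′ end. Over the 17 windows of 10 kb, mean QKI-5 EPM went from 7.18 to 92.5, a 12.9-fold span. The order of the windows was much the same in the 3 QKI-5 libraries, with Spearman's rho of 0.98 for replicates 1 and 2, 0.94 for 1 and 3 and 0.94 for 2 and 3 (n = 17 windows of 1 transcript, given as a description). Over the 164 segments rho was 0.60, 0.67 and 0.45 for the same pairs, with fewer events behind each value.

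The locus was divided into 10 equal parts, numbered from the 5′ end. Part 10, from 163983234 to 163999628, held the most QKI-5 events. Its share was 29.2, 26.7 and 29.9% in QKI-5 iCLIP replicates 1 to 3, which is 1033, 219 and 388 events. In the controls it was 22.2% (10 of 45 events, 95% exact interval 11.2 to 37.1), 33.3% (3 of 9, 7.49 to 70.1) and 0% (0 of 4, up to 60.2). The control shares lay on both sides of the QKI-5 shares, and the means were 28.6 ± 1.69% and 18.5 ± 17.0% (SD, n = 3 each, two-sided exact permutation p = 0.4, adjusted 0.533). The difference of 10.1 percentage points became 0.845 without control replicate 3 and 17.5 without control replicate 2, so a lean towards the 3′ end relative to control was not detectable at this control depth. Distinct positions gave 24.3, 25.4 and 26.9% in QKI-5 libraries and 21.4, 28.6 and 0% in controls.

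The other parts of the locus differed in a way that the 3 QKI-5 libraries shared. Part 1 held 11.7 ± 1.52% of QKI-5 events (SD, n = 3), part 9 held 10.8 ± 1.85%, part 3 held 9.09 ± 0.71% and part 7 held 8.55 ± 0.55%. Parts 4 and 6 were the sparsest, with 3.75 ± 0.38% and 4.29 ± 0.29%. Of the 58 pooled control events, 13 fell in part 1 and 13 in part 10, and parts 3 and 7 held 2 each. The pooled controls thus had as many events in part 1 as in part 10, where QKI-5 libraries had a larger share in part 10. In control replicates 1 to 3, part 1 held 9, 1 and 3 events and part 10 held 10, 3 and 0. The equal pooled counts thus depend on control replicate 3, with 4 QKI events in all. This contrast rests on few control events and was not tested.

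**Figure D3:**
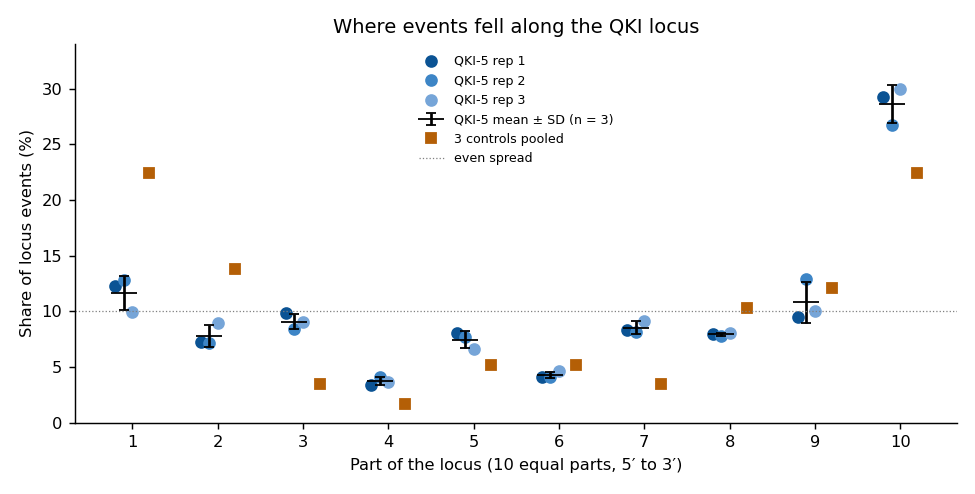
Share of QKI locus events in each of 10 equal parts of its length, 5′ to 3′, for the 3 QKI-5 iCLIP libraries (circles, with mean and SD in black) and for the 58 events of the 3 pooled controls (squares). The dotted line is the share of an even spread. The QKI-5 share in part 10 was 28.6% on average and no other part averaged above 11.7%.

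Within the 3′ part a single 1 kb segment stood out. From 163994675 to 163995674, between 4953 and 3954 nt before the 3′ end, it held 431, 81 and 148 events in QKI-5 iCLIP replicates 1 to 3. The controls held 1, 2 and 0 events there. In EPM that is 59.2, 37.8 and 51.2 in QKI-5 libraries against 7.25, 48.2 and 0 in controls, so the groups overlapped. It was the highest of the 164 segments in each of the 3 QKI-5 libraries taken alone, with 12.2, 9.88 and 11.4% of their QKI events. In control replicate 2 it tied for the highest with the segment from 163968675, which also held 2 events. The 2 events of the strong segment there, both at 1 position, made up 22.2% of the 9 QKI events. The QKI-5 shares are 20.01, 16.2 and 18.7 times the mean density of the locus in the same library. The QKI-5 events were not copies of a few positions, since they lay on 206, 50 and 73 distinct positions of the segment. The segment was singled out after its values were seen, so these ranks are a description.

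The segment held 3 of the 8 bins of 100 nt that ranked highest by the geometric mean of their QKI-5 EPM. The strongest of all, 163994775 to 163994874, held 169, 17 and 41 events in QKI-5 iCLIP replicates 1 to 3, or 23.2, 7.93 and 14.2 EPM. No control had an event there. It ranked first, second and first among the 1640 bins of the locus in the 3 QKI-5 libraries, and in replicate 1 its events filled 59 of its 100 positions. A stretch of 20 nt inside it, 163994809 to 163994828, took 94, 12 and 22 of those events. It includes the 2 single positions of the locus that ranked highest by geometric mean QKI-5 EPM. Position 163994827 held 17, 3 and 8 events and position 163994814 held 15, 4 and 3.

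A second bin, 163995075 to 163995174, held 67, 19 and 9 events in QKI-5 iCLIP replicates 1 to 3, with 41, 15 and 6 of them between 163995124 and 163995143. It was the highest bin of replicate 2 and only rank 13 in replicate 3. Its strongest position, 163995143, held 10, 5 and 3 events. The third bin, 163995475 to 163995574, went the other way, with 35, 3 and 35 events, and ranked 9, 55 and 2. The libraries thus shared the segment and differed in which of its bins was strongest. Towards the end of the locus the signal was low again, and the last 3 kb held 41, 18 and 10 QKI-5 events.

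**Figure D4:**
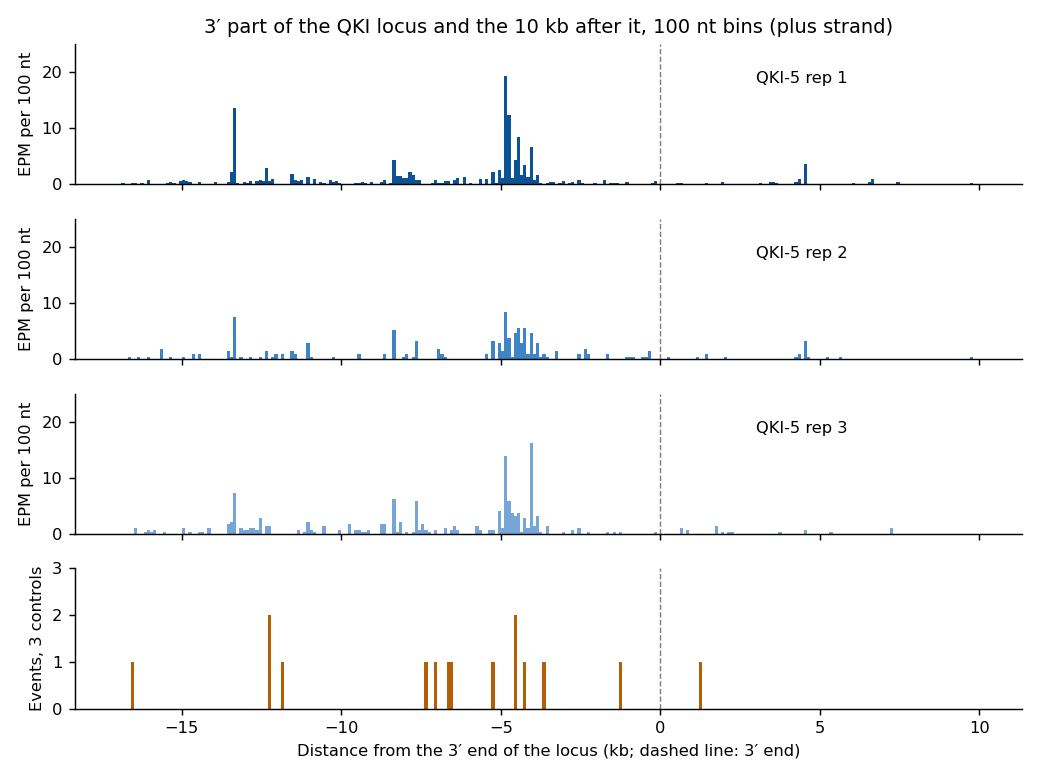
EPM in 100 nt bins from 17 kb before to 10 kb after the 3′ end of the QKI locus (dashed line) for QKI-5 iCLIP replicates 1 to 3, with the events of the 3 controls added up in the bottom panel. Bins are counted here from the 3′ end. The QKI-5 libraries share a cluster of high bins between 5 and 4 kb before the end and narrower peaks near 13 and 8 kb before it, where the 3 controls together hold at most 2 events in a bin.

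Of the other strong bins, 2 also lay in part 10. From 163986175 to 163986274 there were 108, 13 and 20 events in QKI-5 iCLIP replicates 1 to 3, ranks 2, 4 and 3 of their libraries. In this bin 77, 11 and 10 events fell on 20 nt from 163986244, where position 163986251 alone held 20 and 6 events in replicates 1 and 2 and none in replicate 3. From 163991275 to 163991374 there were 31, 8 and 18 events, ranks 11, 8 and 4. Neither bin held a control event.

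The remaining 3 strong bins lay in the 5′ part of the locus, from 10.4 to 48.5 kb after its start. From 163868475 to 163868574 there were 105, 15 and 14 events in QKI-5 iCLIP replicates 1 to 3, of which 56, 9 and 6 fell on the 20 nt from 163868507. Its strongest position, 163868526, held 9, 3 and 3 events. From 163884175 to 163884274 there were 40, 13 and 9 events, and from 163846075 to 163846174 there were 64, 12 and 4. The last of these ranked 5 and 6 in replicates 1 and 2 and 52 in replicate 3, so it was weak in 1 of the 3 libraries. No control event fell in any of them.

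Together the 8 bins covered 0.488% of the locus and held 17.5, 12.2 and 11.6% of its events in QKI-5 iCLIP replicates 1 to 3. None of the 58 control events fell in them, which allows a share of up to 5.17% of the pooled control events (3 events of 58). The pooled QKI-5 EPM of the 8 bins was at least 4.92-fold higher than the pooled controls, taken at a floor of 3 events. The bins were chosen for their QKI-5 values, so this figure is a description. Taken singly, the strongest bin was at least 1.29-fold higher on that floor and the other 7 lay below it, so a control level equal to that of QKI-5 iCLIP would not have been detectable in them one by one.

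To measure the concentration in libraries that had no part in the choice, the 20 bins with the highest mean EPM in 2 QKI-5 libraries were read in the third. These bins make up 1.22% of the locus. They held 23.4% of the QKI events of replicate 1 (825 of 3532, 95% exact interval 22.0 to 24.8), 20.4% of replicate 2 (167 of 820, 17.7 to 23.3) and 19.7% of replicate 3 (255 of 1297, 17.5 to 21.9). That is 19.1, 16.7 and 16.1 times their share of the length. Control replicate 1 held 2.22% of its QKI events in each of the 3 choices of bins and control replicate 3 held none. Control replicate 2 held 22.2% (2 of 9 events, 2.81 to 60.01) in the bins read in QKI-5 replicates 1 and 2 and 0% in those read in replicate 3. Its 22.2% lay above the QKI-5 shares of replicates 2 and 3, and its average over the 3 choices, 14.8%, lay below all 3 QKI-5 shares. With each control averaged in this way, the means were 21.1 ± 1.96% in QKI-5 iCLIP and 5.68 ± 7.99% in controls (SD, n = 3 each, two-sided exact permutation p = 0.1, the smallest possible, adjusted 0.2). The bins were chosen in QKI-5 libraries only, and each QKI-5 library was read once where each control was averaged over 3 choices. The permuted values are thus not alike in the 2 groups, and no conclusion is drawn from this p-value. The 3 choices shared 14 bins and rested on 1 to 3 control events each. With bins of 50 nt the difference of 15.4 percentage points was 10.04, with an overlap between the groups (two-sided exact permutation p = 0.4), and with 50 bins it was 18.7, also with an overlap (p = 0.2).

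At the level of single nucleotides, most QKI positions of the QKI-5 libraries were found in only 1 of these libraries. Of 3585 QKI positions with an event in any of them, 3348 (93.4%) were found in 1 library, 217 in 2 and 20 in all 3. QKI-5 replicates 1 to 3 held 2507, 555 and 780 positions, so depth limits the overlap and at most 555 could be in all 3. The overlap of randomly placed positions was not computed, so these counts do not say whether the overlap was small or large for this depth. Of 52 control positions, 6 also held a QKI-5 event. Of the 1640 bins of 100 nt, 147 held events in all 3 QKI-5 libraries and 477 held none in any of the 6 libraries.

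The last comparison asked which stretches of the QKI transcript differed between libraries with and without the antibody. Of the 17 windows of 10 kb, 15 had enough events to be tested, and none was called higher or lower by edgeR (adjusted p from 0.0774 to 0.870), against a background of 0.771% of the 29960 tested windows called higher and 0.107% called lower. At an unadjusted p under 0.05, 6 of the 15 were higher and none lower, where 17.5% of all tested windows were higher. The DESeq2 Wald test called none either. The log2 fold change was above 0 in 14 of the 15, with a median of 1.10, against 77.4% of all tested windows and a median of 0.79. With library totals 12 of the 15 were above 0, with a median of 0.54, against 58.5% of all tested windows and a median of 0.22. In 7 of the 17 windows every QKI-5 EPM lay above every control EPM, 6 of them among the 15 tested, against 23.7% of all tested windows, and 6 of those 7 held at most 1 control event.

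The window with the most QKI-5 events was the last, from 163990001, which holds the strong segment. It had 102, 76.5 and 98.99 EPM in QKI-5 iCLIP replicates 1 to 3 and 58.002, 48.2 and 0 EPM in controls, with no overlap. Its log2 fold change was 1.55 (SE 0.62, adjusted p = 0.161 by edgeR) and its pooled ratio was 2.03 (95% exact interval 1.10 to 4.23). It ranked above 98.6% of all tested windows by mean QKI-5 EPM. It was called in 1 alternative, without control replicate 1 (3.24 on the log2 scale with an edgeR adjusted p of 0.0297, in a fit that called 1.59% of all tested windows higher), and without control replicate 2 or 3 it was 1.69 and 1.42.

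The window nearest to the threshold was the one from 163940001, which lies in part 7. It had 28.0, 25.2 and 29.8 EPM in QKI-5 iCLIP replicates 1 to 3 and no event in any control. It was at least 1.95-fold higher than the pooled controls at a floor of 3 events, and its adjusted p was 0.0774 by edgeR. The window from 163860001, which holds the strong bin at 163868475, had 39.0, 27.1 and 36.0 EPM against 0, 0 and 33.5 EPM in controls, 1 event in control replicate 3. That single event put a control inside the range of the QKI-5 libraries. In windows of 5 kb, the one from 163865001 to 163870000 around the same bin had 222, 45 and 79 events in QKI-5 iCLIP and none in controls, and was the only 1 of 19 tested 5 kb windows of the locus to be called higher (adjusted p = 0.0412 by edgeR, against 2.64% of all tested 5 kb windows). The window from 163970001 had 32.7, 33.6 and 28.04 EPM against 7.25, 0 and 0 EPM, with a pooled ratio of 6.64 from 1 control event (1.19 to 263).

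One window leaned to the controls. From 163850001 to 163860000 the QKI-5 libraries had 20.9, 14.5 and 15.9 EPM and the controls 50.8, 24.1 and 67.1 EPM, so that every QKI-5 value lay below every control value, an order found in 3.65% of all tested windows. Its log2 fold change was -0.87 (SE 0.66, adjusted p = 0.496 by edgeR) and -1.44 with library totals, and its pooled ratio was 0.389 (0.208 to 0.822) from 10 control events. Without control replicate 1 the log2 fold change was 0.25, in a fit whose median over all tested windows was 6.69, and both remaining controls still lay above every QKI-5 value in EPM. The first window, which contains the 5′ end, held 7.83, 6.53 and 8.999 EPM in QKI-5 libraries and 7.25, 24.1 and 0 EPM in controls, and had too few events to be tested.

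**Figure D5:**
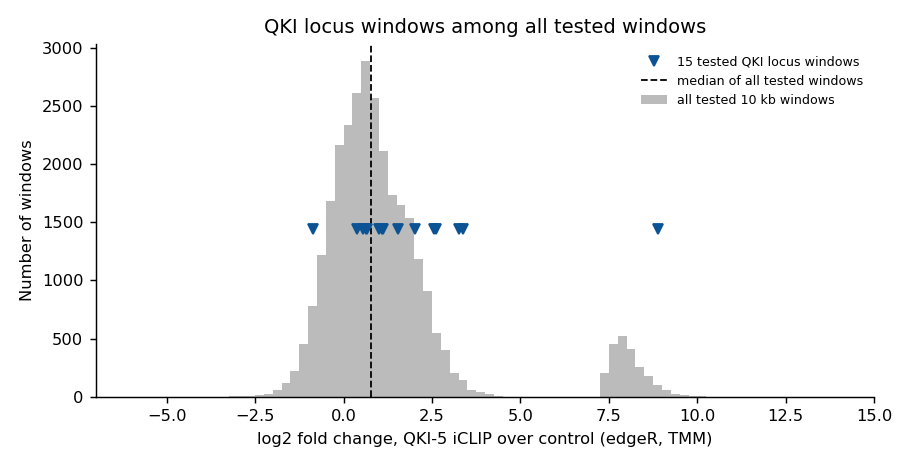
Log2 fold changes, QKI-5 iCLIP over control, of the 15 tested QKI locus windows (triangles, at one arbitrary height) over the number of all 29960 tested 10 kb windows in steps of 0.25. The dashed line is the median of all tested windows, 0.79. The QKI windows lie on both sides of it, and the triangle farthest to the right, at 8.88, is the window from 163940001 without any control event, whose fitted value is no bound.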

How the data were processed

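Each deposited file lists 1 nt positions with a strand and a whole-number count of crosslink events, not normalized and not pooled, 1 file per library. The submitters' processing notes name cutadapt and Bowtie, and hg19 as the build. Their versions, the handling of PCR copies and that of reads with several alignments were not given in the sources used here.

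Events were summed over the QKI locus and over strand-specific 10 kb windows of the genome. The first and last of the 17 QKI windows extend slightly beyond the locus. Windows were tested with the edgeR 4.0.16 quasi-likelihood test (R 4.3.3, limma 3.58.1) on counts with TMM scaling, the filterByExpr filter and group as the only term, and Benjamini-Hochberg adjustment over all tested windows (threshold 0.05). DESeq2 1.42.0 was an alternative. SE is the log2 fold change over the root of its F value. The script was tested on simulated data with the same dispersion in all windows. All simulated libraries shared the same profile apart from windows changed on purpose, a simpler setting than these libraries. Single values were compared by exact permutation of the 6 libraries, unpaired. Intervals are 95% exact (binomial or Poisson) and, like the floor of 3 events, cover counting error only.

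Named positions are all 10 kb windows, the 8 bins of 100 nt and the 5 positions ranked highest by geometric mean QKI-5 EPM (pseudocount of 1 event); windows given in full, the 1 kb segment and the 20 nt stretches were picked after their values were seen. The QKI gene and these rules were chosen with earlier results of these data known. Marker genes and genes of similar pattern, planned only for an hg19 annotation, were not analysed here. Python 3.11.15, numpy 2.4.6, pandas 2.3.3, scipy 1.17.1 and matplotlib 3.10.9 were used.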

Additional observations from a re-analysis of the deposited data

How the results depend on the processing

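The depth of the controls, 4 to 45 events on QKI, limits every comparison with them. The ratio of the locus in EPM stayed above 1 in all alternatives. It was 1.68 with distinct positions and 1.70 with totals that leave out the 20 windows of largest control share. With effective totals from TMM factors computed before the filter on low counts it was 3.92, and without single libraries 1.62 to 2.50. As 1 row of the whole-table fit, the locus had a log2 fold change of 0.65 to 2.79 with 1 library left out, called only without control replicate 1 (2.79), and 0.79 with library totals, 1.17 with DESeq2 size factors, 1.24 with DESeq2, 1.84 without a filter, 1.05 with distinct positions and 1.53 beside 5 kb windows, at adjusted p from 0.106 to 0.439 in these. The number of called QKI windows was 1 with 5 kb windows, 0 to 1 with 1 library left out and 0 otherwise. Without 1 QKI-5 library only 1 QKI window passed the filter. The log2 fold change of 3 single windows changed sign under settings that also moved the median of all windows from its 0.79. It was 0.25 for the window from 163850001 without control replicate 1 (all windows 6.69), -0.90 to 0.25 over the controls left out, and -1.44 with library totals. With library totals (all windows 0.22) it was -0.18 for the window from 163930001 and -0.0040 for that from 163950001, against 0.37 and 0.54 with TMM, so these signs follow the scaling. The difference in part 10 was 8.89 points with distinct positions, 5.45 for the last 5% of the locus and 0.845 to 17.5 with 1 library left out. The held-out bin difference was 10.04 to 18.7 points over other bin widths, numbers and distinct positions, with overlapping groups for 50 nt bins (p = 0.4, two-sided exact permutation) and for 50 bins (p = 0.2), and 12.6 to 20.02 with 1 control left out. The opposite-strand difference stayed within 0.02 points throughout. The strongest bin was 54.8 times the locus mean by events and 32.4 times by distinct positions.

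The libraries were treated as unpaired, since the labels state no pairing of the replicate numbers. Deviations from the group means of same-numbered libraries correlated at -0.0031, 0.10 and 0.075, not all above 0.1. With few control events per window, these values cannot show whether the numbers pair the libraries. QKI-5 replicates 2 and 3 correlated best with the control of their own number and replicate 1 with control replicate 3 (0.058). With the replicate block the log2 fold change of the locus was 1.75 (adjusted p = 0.565 by edgeR), no QKI window was called, and the geometric mean ratio was 2.06.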

Other observations

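Outside the QKI locus, the plus strand upstream was nearly silent while the strand opposite to QKI was not. In the 50 kb before the 5′ end, the plus strand held 1, 0 and 0 events in QKI-5 replicates 1, 2 and 3 and none in controls. The minus strand held 26, 4 and 16 events in QKI-5 libraries and none in controls, where 1 event would weigh 7.25 EPM or more, so an equal level would not have been detectable in the controls. Of these, 12, 3 and 13 events lay within 10 kb of the 5′ end, the nearest 506 nt from it. In RefSeq (GRCh38.p14) the gene next to QKI on that side is CAHM, a long noncoding RNA gene. Whether these events belong to it cannot be read without hg19 gene models.

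Past the 3′ end, plus-strand events went on and then stopped. The first 10 kb held 88, 19 and 19 events in QKI-5 replicates 1, 2 and 3 and 1, 0 and 0 in controls, or 12.1, 8.86 and 6.58 EPM in QKI-5 libraries and 7.25, 0 and 0 EPM in controls. The 40 kb beyond held 1, 0 and 2 QKI-5 events. Within the first 10 kb, the stretch from 4 to 5 kb after the end held 38, 11 and 2 events, so its peak was shared by 2 of the 3 QKI-5 libraries. No minus-strand event was seen in those 50 kb in any library.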
